A study of Mus musculus with 9 samples.

Results

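The miR-23, miR-24 and miR-27 miRNAs of mouse epididymosomes were examined by taking every row of the miRNA table whose name begins with miR-23a-, miR-23b-, miR-24-, miR-27a- or miR-27b-. This gave 7 miRNAs of 358: miR-23a-3p, miR-23b-3p, miR-24-2-5p, miR-24-3p, miR-27a-3p, miR-27b-3p and miR-27b-5p. Epididymosomes are small membrane vesicles in the fluid of the epididymis, the duct in which sperm mature on their way from the testis. They were purified on an OptiPrep density gradient from the caput (the segment nearest the testis), the corpus (the middle) and the cauda (the storage end) of inbred Swiss mice, all adult males of 8 weeks. There were 3 small RNA libraries for each segment, 9 in all. Each library came from vesicles pooled over several animals, so the spread between libraries is that between pools and says nothing of single mice, and the p-values below rest on that spread. Levels are given as CPM, the reads of a miRNA in every 1000000 miRNA reads of a library, and n = 3 libraries for every mean ± SD of a segment.

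A miRNA is cut from a hairpin transcript as a short duplex, of which 1 strand is usually kept by an Argonaute protein as the guide while the other is mostly degraded. The strands are named after the arm of the hairpin, 5p or 3p, and the guide finds its target mRNAs chiefly through the seed, the bases near its 5′ end. The miR-23, miR-27 and miR-24 hairpins lie side by side in a pair of paralogous clusters in mammals and are transcribed together within each. miR-27 is known for its roles in lipid metabolism and fat cell formation, miR-23 and miR-27 for blood vessel growth, and miR-24 for control of the cell cycle and apoptosis.

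The mature sequences show what the members share and where the paralogs part. They are given 5′ to 3′ from RefSeq (GRCm38.p6), with the seed, bases 2 to 8, in capitals. Of the 7 members, 6 were matched to the sequence table by name, and miR-23b-3p was not.
miR-23a-3p: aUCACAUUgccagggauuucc
miR-27a-3p: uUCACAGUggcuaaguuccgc
miR-27b-3p: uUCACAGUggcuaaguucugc
miR-27b-5p: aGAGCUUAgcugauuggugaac
miR-24-3p: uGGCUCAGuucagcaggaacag
miR-24-2-5p: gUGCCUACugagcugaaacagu
miR-27a-3p and miR-27b-3p had the same seed, UCACAGU, and among the miRNAs of the table with a matched sequence no other carried it. Both were 21 bases long and differed at 1 position, C19U, counted from the 5′ end with the base of miR-27a-3p first. A read of miR-27a-3p or miR-27b-3p that stops short of that base cannot be assigned to either, so the split between the miR-27 paralogs is uncertain. The same holds for miR-23a-3p and miR-23b-3p, which are known as near-identical paralogs.

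The first cluster lay at chr8:84208518-84208921 on the plus strand (GRCm38.p6), spanning 404 bases with Mir23a, Mir27a and Mir24-2 in that order. In the GENCODE annotation no other gene overlapped Mir23a or Mir27a, whereas Mir24-2 overlapped an exon of the lincRNA Gm26532 and, on the opposite strand, Mir3074-2. The second cluster lay at chr13:63300484-63301275, also on the plus strand, spanning 792 bases with Mir23b, Mir27b and Mir24-1. All 3 of its hairpins were inside the protein-coding gene 2010111I01Rik and opposite Fancc. Mir23b lay in an intron of 2010111I01Rik, Mir27b overlapped an exon of an annotated transcript of that gene, and Mir24-1 overlapped its exons and Mir3074-1 on the opposite strand. miR-24-3p is encoded in both clusters, at chr8:84208875-84208896 and at chr13:63301251-63301272, and its reads cannot be divided between them. The Mir27b hairpin, chr13:63300712-63300784, is shown because both of its arms were measured, here with the mature arms in capitals, 5p first and 3p second.
Mir27b: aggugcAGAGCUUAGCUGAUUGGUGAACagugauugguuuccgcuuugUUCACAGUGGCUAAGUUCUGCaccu
miR-27b-5p occupied chr13:63300718-63300739 and miR-27b-3p chr13:63300760-63300780.

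The libraries held 1548581 (corpus replicate 3) to 11306605 miRNA reads (caput replicate 1), so that a level of 10 CPM stood for 15.5 to 113 reads. Every caput library (8274421 reads or more) was deeper than every corpus library (6190324 or fewer) and every cauda library (5896748 or fewer). Comparisons with caput are thus also comparisons of depth, and the part of depth in them was not tested. A count of 0 would have allowed up to 0.265 to 1.94 CPM (3 reads), a limit that covers counting error only, since PCR copies are not independent molecules. The share of reads held by miR-10a and miR-10b ran from 50.5% to 71.3% in caput, from 50.3% to 53.2% in corpus and from 33.2% to 34.5% in cauda. CPM values are shares of 1 total, so a change in such abundant miRNAs enters the CPM of all others. From corpus to cauda, miR-143-3p and both arms of miR-145a rose while miR-10a and miR-10b fell. Their sum was 88413 to 121407 CPM in corpus and 291651 to 354735 in cauda. How much of the shifts below comes from such changes, in either direction, was not tested. The median change over all miRNAs tested was 0.47 (log2) from caput to corpus, 0.18 from corpus to cauda and 0.81 from caput to cauda. With TMM scaling, which sets libraries equal on the bulk of their miRNAs, these medians were -0.09, 0.08 and 0.13. The miRNAs called higher and lower numbered 61 and 9 from caput to corpus (42 and 49 with TMM), 48 and 17 from corpus to cauda (56 and 34 with TMM) and 136 and 36 from caput to cauda (88 and 71 with TMM). Caput replicate 2 stood apart, with a TMM factor of 0.478 against 0.753 to 1.29 in the other libraries. Epithelial miRNAs of the miR-200 family were all present, summing to 20990 to 31796 CPM in caput, 71973 to 84209 in corpus and 44552 to 61007 in cauda.

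Together the 7 miRNAs made up 1.05% to 1.89% of the miRNA reads of a library. miR-27b-3p held most of that, 74.9% to 86.4% of the members' CPM, and its share was 85.4% ± 1.56 in caput, 85.0% ± 1.33 in corpus and 77.7% ± 4.58 in cauda. By mean level over the 9 libraries it ranked 10 of 358, followed by miR-27a-3p at rank 52, miR-23b-3p at 65, miR-24-3p at 76, miR-23a-3p at 81, miR-24-2-5p at 148 and miR-27b-5p at 273. Neighbours in this order from miR-27a-3p to miR-23a-3p had overlapping library values in at least 1 segment. Levels of different miRNAs in sequencing libraries also carry differences in ligation and amplification, which were not measured here.

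**Figure D1:**
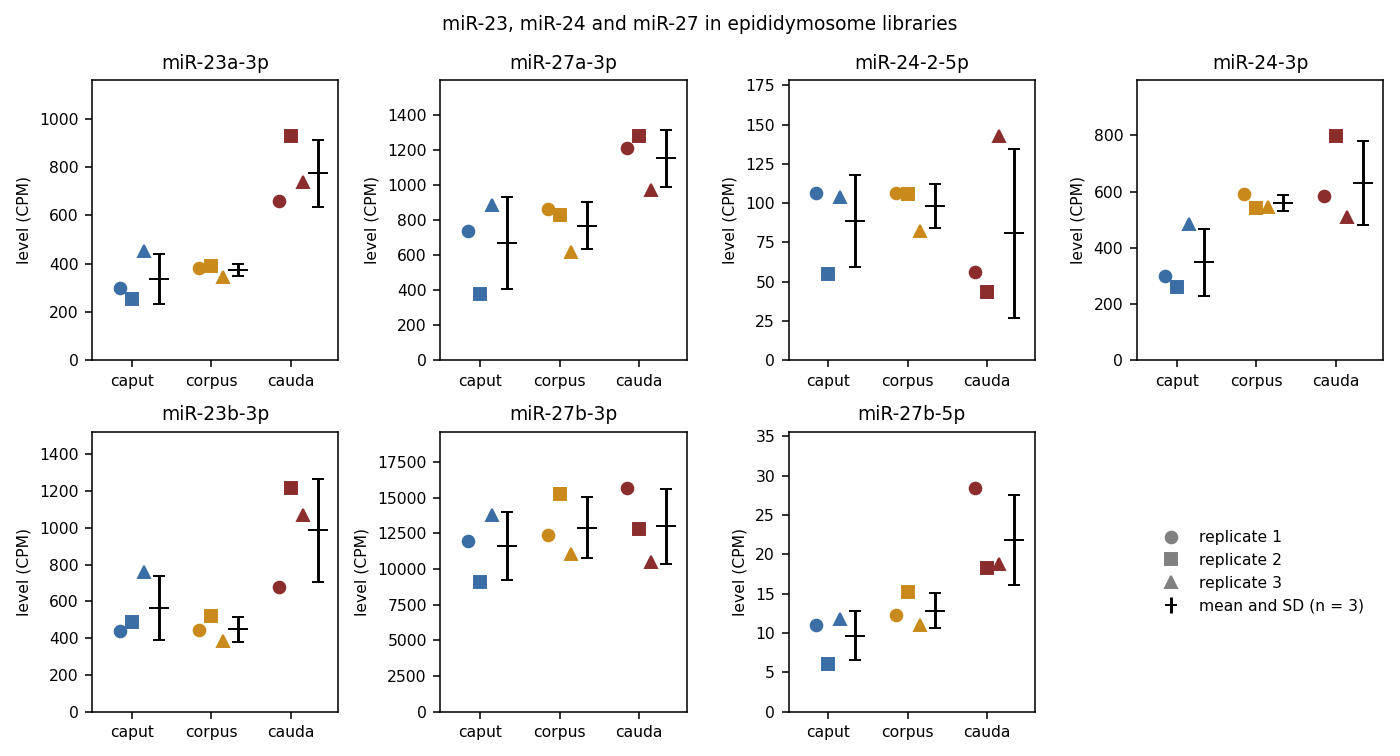
Level (CPM) of each of the 7 miRNAs in the 9 libraries, with 1 panel per miRNA and its own axis from 0; circles, squares and triangles are replicates 1, 2 and 3, and bars are the mean and SD of 3 libraries. miR-23a-3p was at 658 CPM or more in all cauda libraries and at 454 or less in all others, while miR-27b-3p overlapped across the segments.

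The guide strands of miR-27 came first. miR-27b-3p was at 11931, 9058 and 13764 CPM in caput replicates 1 to 3, at 12388, 15246 and 11038 CPM in corpus and at 15696, 12781 and 10479 CPM in cauda. The segments overlapped, and their means of 11584 ± 2372, 12891 ± 2149 and 12985 ± 2614 CPM lay within 1 SD of each other. miR-27a-3p, its paralog of the same seed, was at 736, 380 and 887 CPM in caput, 861, 827 and 615 in corpus and 1210, 1278 and 969 in cauda (668 ± 260, 768 ± 133 and 1152 ± 162). All 3 cauda libraries were above all caput and corpus libraries for miR-27a-3p, and the caput and corpus libraries overlapped.

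The miR-23 pair was higher in cauda than in corpus in every library. miR-23a-3p was at 299, 255 and 454 CPM in caput, 383, 392 and 344 in corpus and 658, 928 and 739 in cauda (336 ± 105, 373 ± 25.3 and 775 ± 139). Its cauda libraries did not overlap those of either other segment. miR-23b-3p was at 438, 488 and 762 CPM in caput, 445, 519 and 384 in corpus and 677, 1219 and 1068 in cauda (563 ± 174, 449 ± 67.6 and 988 ± 280). Its lowest cauda library was above all corpus libraries but below caput replicate 3.

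miR-24-3p was lowest in caput, at 301, 259 and 485 CPM against 593, 541 and 546 in corpus and 585, 797 and 510 in cauda (348 ± 120, 560 ± 28.5 and 631 ± 149). Each caput library was below each library of the other segments, and corpus and cauda overlapped. miR-24-2-5p, the opposite arm of the Mir24-2 hairpin, was at 107, 54.6 and 104 CPM in caput, 106, 106 and 82.0 in corpus and 56.0, 43.5 and 143 in cauda (88.4 ± 29.3, 98.1 ± 14.0 and 80.7 ± 54.0). Cauda replicate 3 was the highest of the 9 libraries for this miRNA and cauda replicate 2 the lowest, so its cauda mean describes none of the 3.

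miR-27b-5p, the arm of Mir27b with by far the smaller share of reads, was at 11.1, 6.04 and 11.8 CPM in caput, 12.3, 15.3 and 11.0 in corpus and 28.5, 18.3 and 18.8 in cauda (9.64 ± 3.14, 12.8 ± 2.20 and 21.9 ± 5.73). These levels rest on 125, 50 and 100 reads in caput, 76, 39 and 17 in corpus and 57, 40 and 111 in cauda. The cauda libraries were above all others, and caput and corpus overlapped.

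The segments were compared in pairs with limma on log2(CPM + 1), a scale that understates the change of scarce miRNAs, and a miRNA was called at an adjusted p under 0.05 and a fold of at least 2. All 7 members passed the minimum of a mean of 10 CPM in 1 of the segments compared, although miR-27b-5p was under it in caput and passed through corpus or cauda. From caput to corpus 0 of the 7 were called by limma, where 21.8% of the 321 miRNAs tested were called. None of the 7 had an unadjusted p under 0.05 in that comparison, and 0 were called by limma-voom on reads recovered from the CPM values. With TMM 0 of the 7 were called, beside 28.3% of all tested. The median log2 change of the 7 was 0.20 beside 0.47 for all tested miRNAs, and 1 of the 7 lay above that median. This was miR-24-3p, at 0.74 (SE 0.38, adjusted p = 0.17 by limma), which was also the 1 member whose caput and corpus libraries did not overlap, against 34.9% of all tested miRNAs. With TMM it was at 0.16 (adjusted p = 0.67 by limma) and its libraries overlapped, while those of miR-23a-3p and miR-23b-3p, both lower in corpus on that scale, did not (2 of 7, against 47.7% of all tested). miR-23b-3p was the 1 member with a negative change, -0.29 (SE 0.39), and with TMM it was at -0.87 (adjusted p = 0.033 by limma), short of a 2-fold change. With TMM the changes of the 5 members other than miR-24-3p and miR-23b-3p turned from positive to negative, and none of those passed the test with either scaling.

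From corpus to cauda 1 of the 7 was called, beside 19.0% of 342 tested miRNAs (14.0% called higher in cauda). miR-23b-3p rose 2.15-fold (log2 1.10, SE 0.38, adjusted p = 0.049 by limma with Benjamini-Hochberg adjustment), and 2.01-fold with TMM (adjusted p = 0.018 by limma), where 26.3% of all tested were called. With median-of-ratios scaling its log2 change was 0.90, under 2-fold, and the p missed the threshold with limma-voom (adjusted p = 0.063), with 0.1 CPM added in place of 1 (adjusted p = 0.051 by limma) and with no minimum level (adjusted p = 0.052 by limma). miR-23a-3p was 2.06-fold higher in cauda (log2 1.04, SE 0.37) and missed the threshold (adjusted p = 0.056 by limma). On p alone, miR-23a-3p passed with TMM (adjusted p = 0.010 by limma) at a fold of 1.92. The CPM of both miR-23 paralogs were also added, which sets aside how reads were split between them only if each read was counted once. Whether reads matching both were counted once was not checked. The miR-23 sum was 822 ± 91.5 CPM in corpus and 1763 ± 408 in cauda and rose by 1.08 on the log2 scale (SE 0.35, adjusted p = 0.040 by limma). For the miR-27 3p strands added together the change was 0.04 (SE 0.27, adjusted p = 0.92 by limma). The call of miR-23b-3p did not hold in 7 of 9 fits that each left out 1 library, with adjusted p from 0.056 to 0.21 by limma in those 7. It was kept without caput replicate 2 or caput replicate 3.

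The remaining members did not pass between corpus and cauda. miR-27a-3p changed by 0.59 (SE 0.38, adjusted p = 0.31), miR-27b-5p by 0.71 (SE 0.43, adjusted p = 0.28), miR-24-3p by 0.15 (SE 0.37) and miR-24-2-5p by -0.46 (SE 0.48), all by limma on the log2 scale. For miR-27b-3p the change was 0.00 with a 95% interval of -0.56 to 0.57, which leaves room for a fold short of 2 in either direction. The libraries of 4 members (miR-23a-3p, miR-23b-3p, miR-27a-3p and miR-27b-5p) did not overlap between corpus and cauda, where 46.2% of all tested miRNAs did not. With TMM 3 of these did not overlap, miR-27a-3p being the exception, against 47.4% of all tested. The median log2 change of the 7 was 0.59, beside 0.18 for all tested.

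From caput to cauda 2 of the 7 were called, both higher, where 49.3% of 349 tested miRNAs were called and 39.0% were called higher. miR-23a-3p rose 2.35-fold (log2 1.23, SE 0.37, adjusted p = 0.012 by limma) and miR-27b-5p 2.18-fold (log2 1.12, SE 0.45, adjusted p = 0.043 by limma). miR-27b-5p was under the minimum of 10 CPM in caput and was tested here through its cauda level alone, and with a minimum of 50 CPM, which it did not reach, 1 member was called. Relative to the median of all miRNAs these changes were 0.42 and 0.31 on the log2 scale. Neither was called with TMM, where 45.6% of all tested were, and miR-23a-3p was at 0.56 (adjusted p = 0.059 by limma) and miR-27b-5p at 0.50 (adjusted p = 0.22 by limma). Leaving out cauda replicate 2 ended the call of miR-23a-3p (log2 1.10, adjusted p = 0.062 by limma), and the call of miR-27b-5p was kept only without caput replicate 3 (adjusted p from 0.058 to 0.16 by limma without any other library). With the CPM of both miR-23 paralogs added, the sum was 899 ± 275 CPM in caput and 1763 ± 408 in cauda. That sum was not called from caput to cauda, being short of a 2-fold change, while miR-27b-5p kept its call in that fit.

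miR-24-3p was 1.84-fold higher in cauda than in caput (adjusted p = 0.060), miR-27a-3p 1.82-fold (adjusted p = 0.067) and miR-23b-3p 1.75-fold (adjusted p = 0.083), all short of the threshold by limma. With TMM these folds were 1.15, 1.14 and 1.10 (adjusted p = 0.48, 0.52 and 0.69 by limma). miR-24-2-5p was at -0.26 (SE 0.48) on the log2 scale. miR-27b-3p was at 0.17 with a 95% interval of -0.40 to 0.74 and turned to -0.51 with TMM, passing the test with neither. The median of the 7 was 0.86, beside 0.81 for all tested miRNAs. The libraries of miR-23a-3p, miR-24-3p, miR-27a-3p and miR-27b-5p did not overlap between caput and cauda, 4 of 7 against 54.2% of all tested. With TMM this held for miR-23a-3p alone, 1 of 7 against 58.7% of all tested. Both comparisons with caput share its libraries, and both with cauda share those of cauda, so the pairwise results are not independent of each other.

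**Figure D2:**
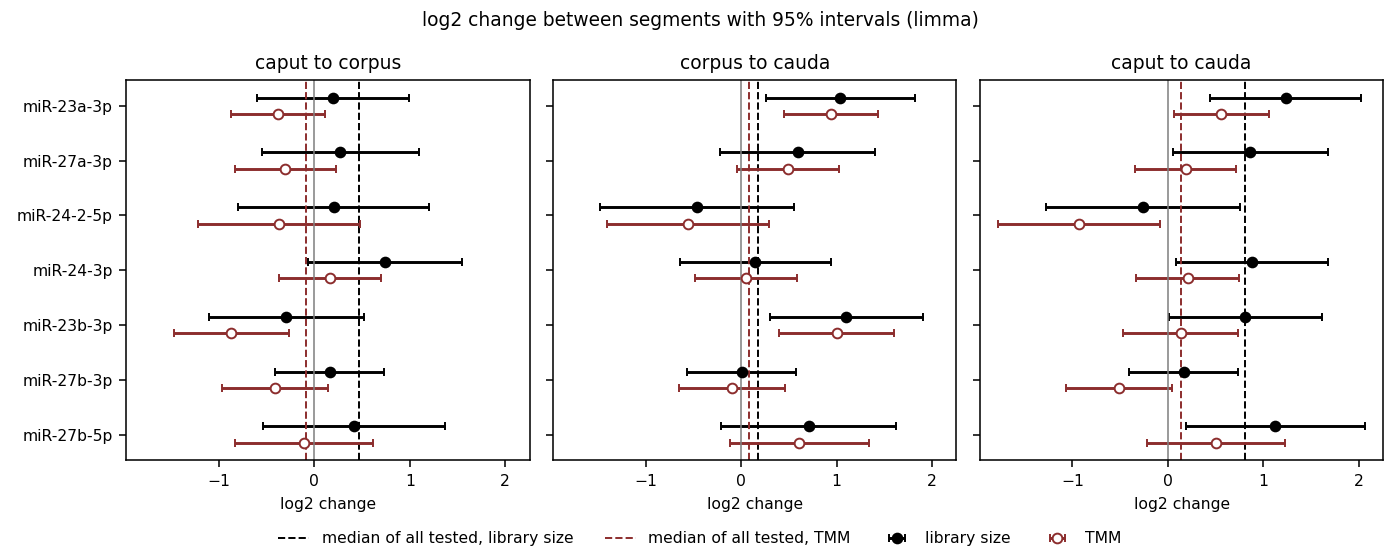
Log2 change of the 7 miRNAs between segments, 1 panel per pair of segments, from limma on log2(CPM + 1) with 95% intervals; filled points use library size, open points TMM, and dashed lines mark the median of all miRNAs tested. miR-23a-3p and miR-23b-3p stood above both medians from corpus to cauda, at 1.04 and 1.10, and miR-27b-3p stood left of the median of its own scaling in every panel.

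Marker miRNAs of cell types were read beside all miRNAs tested, of which 14.0% were called higher from corpus to cauda and 39.0% from caput to cauda. The marker calls below are those with library size, where the median log2 change of all tested was 0.81 from caput to cauda. The smooth muscle list (miR-143-3p and both arms of miR-145a) summed to 50111 to 88978 CPM in caput, 88413 to 121407 in corpus and 291651 to 354735 in cauda, and all 3 were called higher in cauda than in corpus and than in caput. The mesenchymal list (miR-199a, miR-199b and miR-214-3p, 5 of 5 in the table) summed to 1587 to 4923 CPM in caput, 5512 to 8278 in corpus and 7930 to 12149 in cauda, with 3 called higher in cauda than in caput. Red blood cell miRNAs (miR-451a, miR-144 and miR-486a-5p, 3 of 4 in the table) summed to 122 to 468, 234 to 657 and 1595 to 2208 CPM, and all 3 were called higher in cauda than in caput. The leukocyte list (miR-142a, miR-223-3p, miR-150-5p and miR-155-5p, 5 of 5) summed to 231 to 530, 515 to 1149 and 392 to 1601 CPM, with 3 called higher in cauda than in caput. Both arms of miR-126a, the endothelial markers, summed to 837 to 2671, 1721 to 3109 and 2684 to 3457 CPM and were called in no comparison. Of the 5 epithelial miRNAs, 2 were called higher from caput to corpus, where 61 of all 321 tested were. From corpus to cauda 0 of them were called, and from caput to cauda 1 was called higher. No marker in the table was at 0 in all libraries. The part of any of these cells in the levels of miR-23 and miR-27 was not tested, and fewer vesicles from a cell type and less of a miRNA per vesicle cannot be told apart in such libraries.

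The arms of miR-27b were compared within each library, where library scaling cancels out. There were 9.27, 6.67 and 8.59 reads of miR-27b-5p per 10000 reads of miR-27b-3p in caput replicates 1 to 3, 9.91, 10.02 and 9.95 in corpus and 18.1, 14.3 and 18.0 in cauda (8.18 ± 1.35, 9.96 ± 0.0549 and 16.8 ± 2.16). Put the other way, 1 read of the 5p arm stood against 1079, 1499 and 1164 reads of the 3p arm in caput, 1009, 998 and 1006 in corpus and 551, 698 and 557 in cauda. All 3 cauda libraries had a higher 5p share than all caput and corpus libraries. The corpus libraries were also above the caput libraries, but within counting error for the nearest ones. Per 10000 reads of both arms, exact 95% intervals were 7.71 to 11.0 for caput replicate 1 and 7.80 to 12.4 for corpus replicate 1. How many of all hairpins have arm ratios without overlap was not counted. The counting error of single libraries is wide: for corpus replicate 3, with 17 reads of the 5p arm, the exact 95% Clopper-Pearson interval ran from 5.79 to 15.9 per 10000 reads of both arms, and for cauda replicate 2 from 10.2 to 19.5. The near-equal values of the corpus libraries are thus closer than their counting error.

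From caput to cauda the ratio of 5p to 3p rose by 1.00 on the log2 scale (SE 0.30, 95% interval 0.35 to 1.65, adjusted p = 0.043 by limma over 64 hairpins). Arm ratios were called on an adjusted p under 0.05 alone, with no minimum fold. From corpus to cauda it changed by 0.73 (SE 0.30, adjusted p = 0.16 by limma) and from caput to corpus by 0.27 (SE 0.30, adjusted p = 0.67 by limma). The 64 hairpins tested were those whose arms each averaged 10 CPM or more over the 9 libraries. miR-27b-5p averaged 14.8 CPM over these but 9.64 in caput, so it was tested through its corpus and cauda levels. At a minimum of 2 CPM its change of ratio from caput to cauda missed the threshold (adjusted p = 0.056 by limma). Of the 64 ratios, 10 were called from caput to cauda (15.6%), 4 from corpus to cauda (6.25%) and 1 from caput to corpus (1.56%). Among all 64, called or not, miR-27b had the 9th highest signed change from caput to cauda and the 18th largest in size. Its mean log2 ratio of -9.77 was the 2nd lowest of the 64. For scale, the 3 largest called changes from caput to cauda were -2.83 for miR-221, 2.58 for miR-465b and -1.97 for miR-434. The call for miR-27b did not hold when any 1 of the 9 libraries was left out, with log2 changes of 0.88 to 1.11 and adjusted p of 0.059 to 0.15 by limma.

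**Figure D3:**
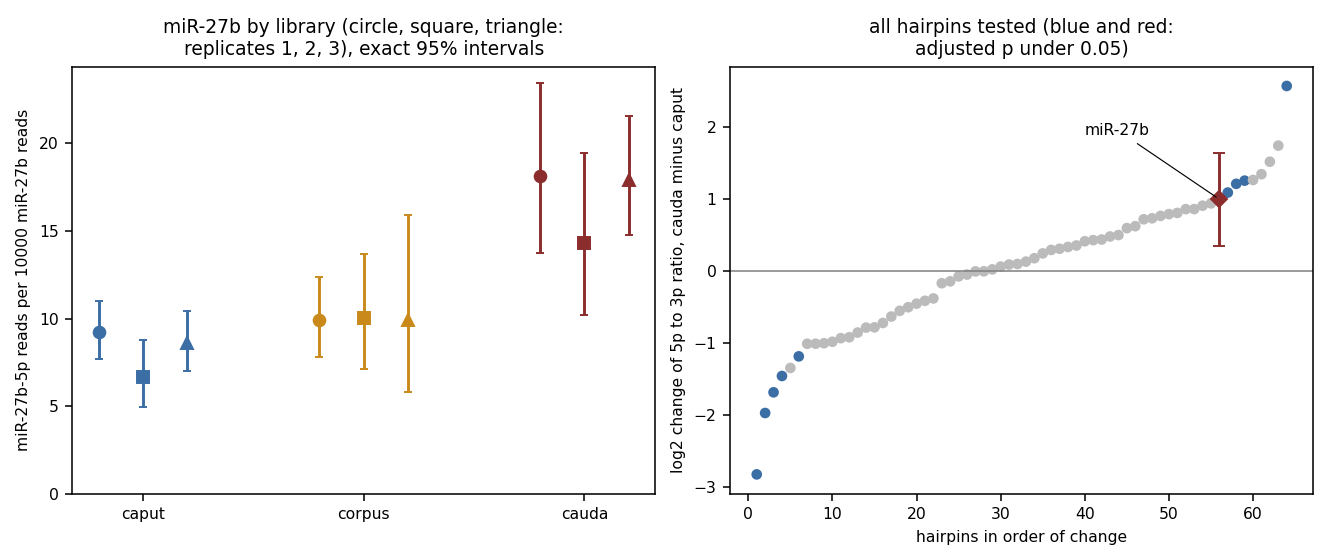
Left, miR-27b-5p reads per 10000 miR-27b reads in each of the 9 libraries, with exact 95% intervals for counting error; right, log2 change of the 5p to 3p ratio from caput to cauda for 64 hairpins in order of change, with miR-27b as a red diamond with its 95% interval and other called hairpins in blue. Cauda libraries were at 14.3 or more and all others at 10.02 or less, and miR-27b at 1.00 was the 9th highest of the 64.

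Ratios between members were tested over the 3 segments with an exact permutation test of the F statistic, and the smallest p that 9 libraries in 3 groups allow is 0.00357. None of 5 ratios passed after adjustment. The ratio of miR-27b-3p to miR-27a-3p, the paralogs of 1 seed, was 16.2, 23.8 and 15.5 in caput, 14.4, 18.4 and 17.9 in corpus and 12.97, 10.004 and 10.8 in cauda (exact permutation p = 0.036, adjusted 0.094). All cauda libraries were lower than all others. Expressed on the larger paralog, miR-27a-3p amounted to 4.20% to 6.45% of miR-27b-3p in caput, 5.43% to 6.95% in corpus and 7.71% to 9.996% in cauda.

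The ratio of miR-23b-3p to miR-23a-3p averaged 1.69 in caput, 1.20 in corpus and 1.26 in cauda (exact permutation p = 0.071, adjusted 0.094). Within the chromosome 13 cluster, miR-23b-3p to miR-27b-3p averaged 0.0487, 0.0349 and 0.0801 (exact permutation p = 0.075, adjusted 0.094), with cauda replicate 1 apart from the other cauda libraries and within the caput range. Of the 9 tests that each left out 1 library, the 1 without that library passed (adjusted p = 0.018 by the exact permutation test, log2 change 1.50 from corpus to cauda), and the other 8 had adjusted p of 0.14 to 0.18. Within the chromosome 8 cluster, miR-23a-3p to miR-27a-3p averaged 0.529, 0.492 and 0.677 (exact permutation p = 0.19, adjusted 0.19). miR-24-3p stood at 0.0281, 0.0417 and 0.0453 of the miR-27 3p strands together (exact permutation p = 0.068, adjusted 0.094). Members of 1 cluster thus differed in level by more than 10-fold in every library of the chromosome 13 pair except cauda replicate 3 and by less in the chromosome 8 pair.

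**Figure D4:**
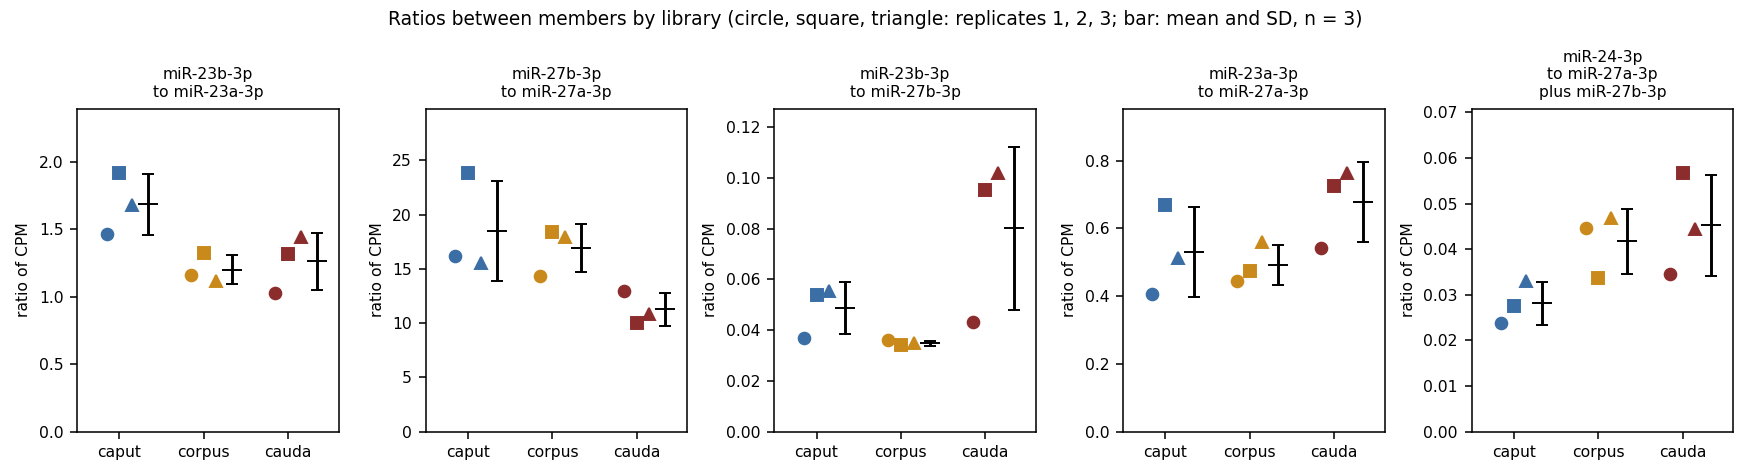
Ratio of CPM between members in each of the 9 libraries, with 1 panel per ratio and its own axis from 0; circles, squares and triangles are replicates 1, 2 and 3, and bars are the mean and SD of 3 libraries. The ratio of miR-27b-3p to miR-27a-3p was 10.004 to 12.97 in cauda and 14.4 or more elsewhere, while the other ratios overlapped between cauda and at least 1 other segment.

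Likeness of pattern was measured as the root mean square difference in log2(CPM + 1) over the 9 libraries, each miRNA centred on its own mean. Of 302 miRNAs compared, those nearest to miR-27b-3p were miR-652-3p (0.18), miR-151-5p (0.22) and miR-205-5p (0.22), against a median of 0.71. The nearest to miR-27b-5p were miR-181a-1-3p (0.21), let-7d-5p (0.27) and miR-28a-5p (0.28), against a median of 0.73. Among the members, miR-27b-5p was nearer to miR-27a-3p (0.23) than to the 3p arm of its own hairpin (0.42). These distances are a description of 9 libraries that share their scaling, in which the scarcest miRNAs also carry the most counting error.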

How the data were processed

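Small RNA libraries of epididymosomes (3 segments, 3 libraries each) were analysed from 1 table of 358 miRNAs. The authors screened reads against contaminant and adaptor sequences with cutadapt and bowtie. They quantified known miRNAs with miRDeep2 and deposited them as CPM (reads in every 1000000 miRNA reads). The submitters' processing notes name CASAVA 1.8.2, Bowtie 1.1.1 and limma; the genome build and miRBase release are not given in the sources used here. Every CPM value was a whole multiple of 1 read within a tolerance of 0.02, which gave each library's total, 1548581 to 11306605 reads.

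Groups came from the sample labels. limma 3.58.1 in R 4.3.3 (lmFit and eBayes with a trend) was run on log2(CPM + 1) over all 9 libraries for miRNAs averaging 10 CPM or more in 1 of the segments compared, with Benjamini-Hochberg adjustment over all miRNAs tested. Arm ratios were tested by limma on log2 of 5p over 3p, with 0.5 CPM added to each, and called on adjusted p alone. The hairpins tested were those whose arms each averaged 10 CPM or more over the 9 libraries. Ratios between members were tested with an exact permutation test of F, which covers differences in either direction, in Python 3.11.15 with numpy 2.4.6 and pandas 2.3.3, and plotted with matplotlib 3.10.9. The main limma fit, the arm ratio fit and the permutation test were tested on simulated data, and the alternatives below were not. Alternatives were TMM and median-of-ratios scaling, limma-voom, other pseudocounts and minimum levels, the 6 libraries of a comparison, paralogs summed, a replicate block and leaving out each library. A fit on all 358 miRNAs was added after seeing the data.

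Sequences were read from RefSeq (GRCm38.p6), which matched 299 of 358 names and 6 of 7 members, and gene models from GENCODE M21. The text names every member, the 3 miRNAs nearest in pattern to each miR-27b arm, the 3 largest called changes of arm ratio, and the marker lists (epithelium, endothelium, smooth muscle, mesenchyme, red blood cells, leukocytes). Members and lists were chosen with earlier results of these data known.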

Additional observations from a re-analysis of the deposited data

How the results depend on the processing

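From caput to corpus 0 of the 7 members were called under every alternative run. From corpus to cauda, where 1 was called, 0 were called with median-of-ratios scaling, limma-voom, a pseudocount of 0.1 or no minimum level, and 2 in the 6 libraries compared; leaving out 1 library gave 0 to 2. From caput to cauda, where 2 were called, 0 were called with TMM or median-of-ratios scaling, and 1 with a pseudocount of 10, a minimum of 50 CPM, the 6 libraries compared or paralogs summed; leaving out 1 library gave 0 (without cauda replicate 2) to 5 (without caput replicate 3). The arm ratio of miR-27b from caput to cauda was 0.71 with 5 CPM added (adjusted p = 0.079 by limma) and 1.00 with a minimum of 2 CPM (adjusted p = 0.056 by limma), and 0.88 to 1.11 without 1 library; at a minimum of 50 CPM miR-27b-5p was not tested. Without 1 library the log2 change of ratios from corpus to cauda ran from -0.074 to 0.28 for miR-24-3p to miR-27, from -0.042 to 0.20 for miR-23b-3p to miR-23a-3p and from 0.88 to 1.50 for miR-23b-3p to miR-27b-3p.

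Signs turned with scaling for changes that did not pass the test in the comparison concerned. From caput to corpus, TMM and median-of-ratios scaling gave -0.38 and -0.33 for miR-23a-3p, -0.37 and -0.31 for miR-24-2-5p, -0.30 and -0.25 for miR-27a-3p, -0.41 and -0.36 for miR-27b-3p and -0.11 and -0.057 for miR-27b-5p. For miR-27b-3p they gave -0.10 and -0.20 from corpus to cauda (-0.030 with limma-voom) and -0.51 and -0.56 from caput to cauda, and for miR-24-3p median-of-ratios scaling gave -0.054 from corpus to cauda. Leaving out 1 library turned signs in 9 instances: from caput to corpus, miR-24-2-5p ran from -0.11 to 0.37, miR-27a-3p from -0.089 to 0.52 and miR-27b-3p from -0.0045 to 0.30, from corpus to cauda miR-24-3p from -0.034 to 0.29 and miR-27b-3p from -0.14 to 0.15, and from caput to cauda miR-24-2-5p from -0.77 to 0.079 and miR-27b-3p from -0.00053 to 0.31. The cause was not tested. Over all miRNAs, calls at a minimum of 50 CPM, where fewer were tested, numbered 43 against 65 from corpus to cauda and 95 against 172 from caput to cauda. Without 1 library, calls numbered 32 against 65 from corpus to cauda (without corpus replicate 2) and 46 against 70 from caput to corpus (without corpus replicate 1), and called arm ratios from caput to cauda ranged from 1 to 18 against 10.

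Same-numbered libraries of different segments were not treated as pairs, since not every pair correlated: the correlation of their deviations ran from -0.21 to 0.44 and was over 0.1 in 6 of 9 pairs, against 4 of 18 pairs with different numbers, and not every library correlated best with its own number. Whether the numbers mark a shared origin is not given in the sources used here. With the replicate block, 0 members were called from corpus to cauda (miR-23b-3p, adjusted p = 0.051 by limma), the arm ratio kept its call (adjusted p = 0.0495 by limma) and all 5 ratios had an adjusted p of 0.139 by exact permutation within numbers. edgeR was not run on the recovered reads. Depth limits miR-27b-5p, which rested on 17 to 125 reads per library.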
